A study of Mus musculus with 6 samples.

Results

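The 40 genes described here build and watch over the attachment of chromosomes to the mitotic spindle: centromere and kinetochore proteins, the spindle checkpoint, the chromosomal passenger complex, Aurora A with its activator, and the proteins that hold and then release sister chromatids. They were chosen by name, with earlier results of these data known. All were found among the 35976 genes of the deposited tables and passed the filter on low counts, which left 17348 genes. Levels were measured by RNA-seq in satellite cells (SCs), the stem cells of skeletal muscle, in 3 libraries of each genotype, NF-YA cKO and the control NF-YA fl/fl. NF-YA is the subunit through which the trimeric transcription factor NF-Y binds DNA. NF-YA cKO mice carry floxed NF-YA alleles together with Pax7-CreERT2, a recombinase made in Pax7-expressing cells and switched on by tamoxifen. NF-YA fl/fl mice carry the floxed alleles without Cre and received tamoxifen too (20 mg/ml, mice of 5 to 7 weeks per the labels), so that tamoxifen was common to both groups and Cre was not. SCs were enriched by magnetic removal of cells positive for CD31, CD45, CD11b or Sca1 and grown for some days in growth medium before total RNA was sequenced.

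During division, nucleosomes that hold CENP-A mark the centromere. The constitutive centromere-associated network (CCAN) assembles on them and carries the outer kinetochore, whose Ndc80 complex grips microtubules. Kinetochores that are not attached activate the spindle checkpoint, which withholds Cdc20 from the anaphase-promoting complex (APC/C) until every chromosome is attached. Transcripts of most of these genes accumulate in dividing cells and are low in quiescent SCs and in differentiated muscle. NF-Y recognizes the CCAAT box, which is frequent in promoters of mitotic genes, where a second element named CHR is often found too.

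Total expected counts were 31040863 to 41118984 in NF-YA cKO and 26936230 to 33316730 in NF-YA fl/fl libraries. The deleted Nfya allele, given an entry of its own by the authors, received 22.3%, 26.4% and 34.2% of the Nfya counts in the NF-YA cKO libraries and 0 counts in every NF-YA fl/fl library, while Nfya as a whole gene had a log2 fold change of -0.06 (SE 0.18, FDR = 0.814, edgeR's quasi-likelihood test). Of the markers of SCs and myoblasts, Pax7 was at 15.95 to 42.81 TPM and Myod1 at 239.6 to 631.69 TPM over the 6 libraries, while the NF-YA fl/fl libraries also held 7839 to 13020 TPM of terminal muscle genes. The NF-YA cKO libraries varied less among themselves than the NF-YA fl/fl libraries, their biological coefficients of variation being 0.105 and 0.31. The groups were also parted by sex-linked genes, which cannot be told apart from genotype: Xist was at 836 to 852 CPM in NF-YA cKO (controls at most 0.475) and the Y-linked Ddx3y at 81.0 to 88.6 CPM in the controls (NF-YA cKO at most 0.0957). The study's methods describe tamoxifen injection of male mice. Of the 40 genes, 1 lies on the X chromosome (Cenpi) and the others on autosomes.

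Most of the genes rose. In NF-YA cKO, 39 of the 40 had a higher fitted level than in NF-YA fl/fl, with a median log2 fold change of 1.19 and a range from -0.43 to 1.58, where the median over all tested genes was -0.02. A gene counted as called where its FDR was under 0.01 and its level more than 2-fold apart (log2 fold change beyond 1 or -1). By edgeR's quasi-likelihood test, 25 of the 40 were called higher (62.5%), beside 4.65% of all tested genes. Of the 40, 0 were called lower, beside 7.67% of all tested genes, and 1 gene was lower at an unadjusted p under 0.05 (Cenpc1). Without the threshold on the fold change, 30 rose with an FDR under 0.01 (75.0%, beside 10.3% of all tested genes) and 0 fell (beside 9.96%). The 5 that passed the FDR alone were Hjurp, Cenpq, Zwint, Bub3 and Incenp, and the 10 that did not pass it were Cenpb, Cenpc1, Cenpo, Cenpp, Cenpt, Ndc80, Nuf2, Cenpe, Cenpf and Pttg1. Libraries are of bulk RNA, in which fewer cells of a type and less RNA per cell cannot be told apart, nor more dividing cells and more RNA in each.

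**Figure D1:**
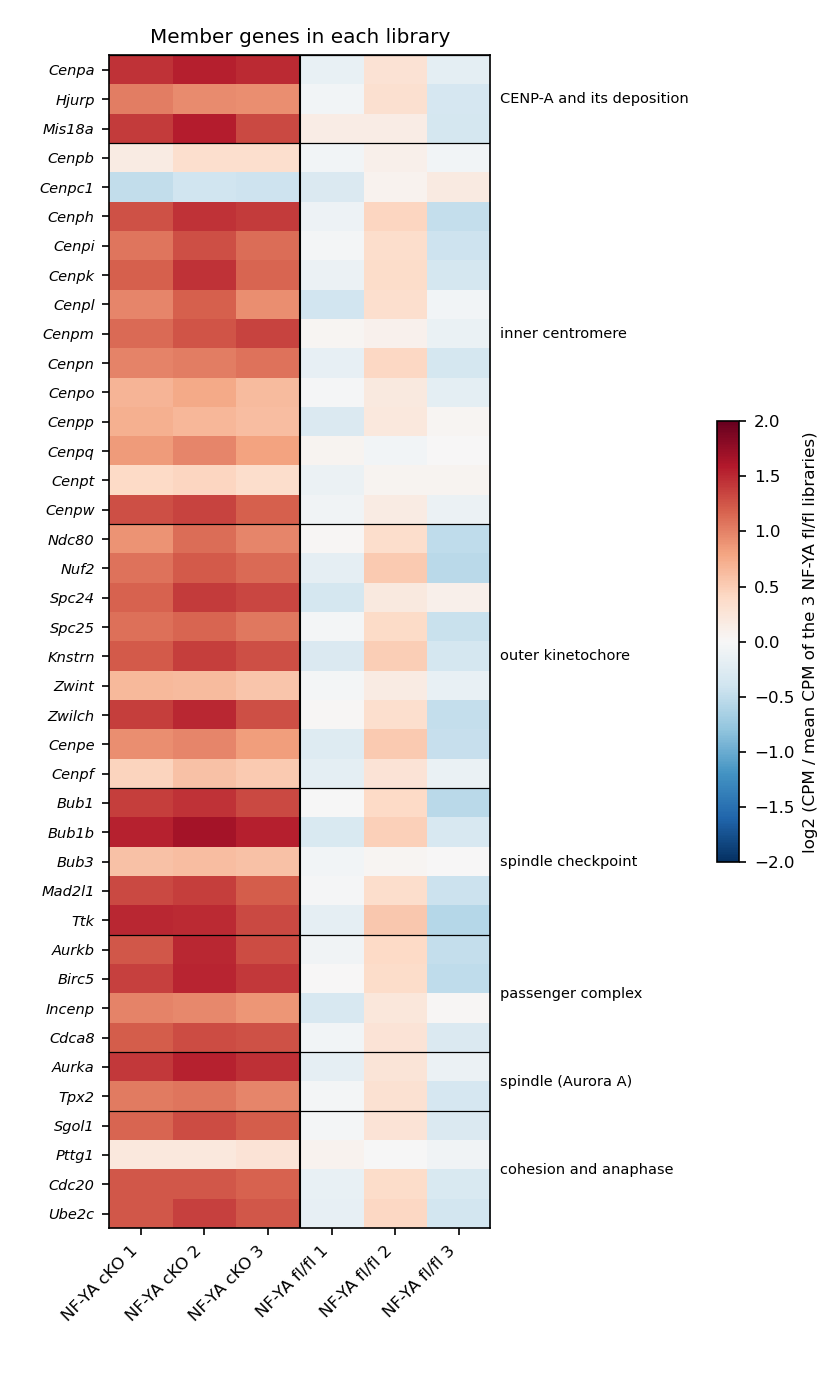
Level of each of the 40 genes (rows, by role) in each of the 6 libraries (columns), as log2 of its CPM over the mean CPM of the 3 NF-YA fl/fl libraries. The NF-YA cKO columns are above 0 for every gene but Cenpc1 and are alike, while NF-YA fl/fl 2 is the highest control for 36 genes and NF-YA fl/fl 3 the lowest for 30.

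The direction was steadier than the calls. In CPM, all 3 NF-YA cKO libraries lay above all 3 NF-YA fl/fl libraries for 39 genes (97.5%, beside 29.1% of all tested genes), and below them for Cenpc1 (26.2% of all tested genes lay below). In TPM, 32 genes lay above (18.8% of all), Cenpc1 lay below (25.2% of all), and the genotypes overlapped for 7. The number of calls changed when 1 library was left out. Leaving out NF-YA cKO 1, 2 or 3 left 4, 2 and 2 genes called, leaving out NF-YA fl/fl 1 left 5, and leaving out NF-YA fl/fl 2 or 3 gave 30 and 20. The median log2 fold change of the 40 genes was 1.04 to 1.36 in these fits. Over all tested genes, the 806 called higher became 283, 177 and 279 without NF-YA cKO 1, 2 or 3. Without NF-YA fl/fl 1, 2 or 3 they became 298, 890 and 854. Of the 40 genes, Aurka and Cenpa were called in all 6 of these fits. The limma test on log2(TPM + 1), in which Cenpw was the single call, found 23 genes higher with an FDR under 0.05, and edgeR's glmTreat, which asks whether the log2 fold change exceeds 1, called 0. In each of the 20 alternatives Cenpc1 was the 1 gene of the 40 with a lower level, though those that change only the threshold keep the fold changes.

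**Figure D2:**
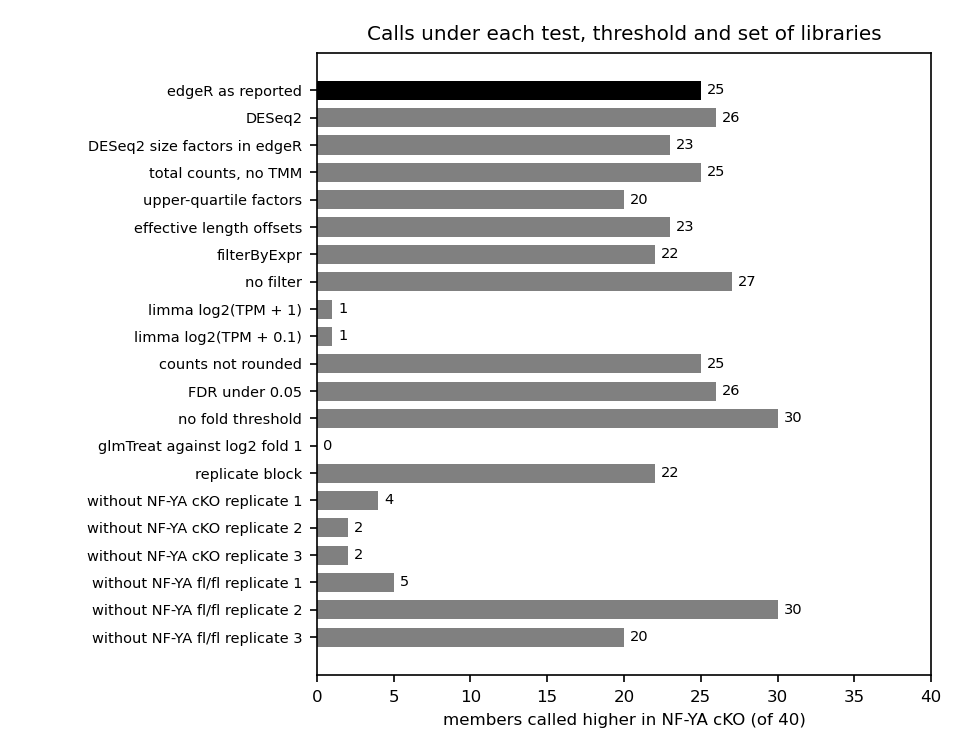
Number of the 40 genes called higher in NF-YA cKO (horizontal axis, bars from 0) under each test, scaling, threshold and set of libraries (vertical axis). The reported fit calls 25 (black bar), and the count falls to 5 or fewer with limma on TPM, with glmTreat, and without NF-YA fl/fl 1 or any single NF-YA cKO library.

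The controls were spread, and most of the 40 genes had them in the same order. The coefficient of variation of CPM over 3 libraries had a median of 4.92% (at most 11.6%) in NF-YA cKO and 22.5% (at most 40.2%) in NF-YA fl/fl, and was larger in NF-YA fl/fl for 39 of the 40 genes, the exception being Cenpq. Over all tested genes these medians were 7.97% and 20.7%. NF-YA fl/fl 2 held the highest control level for 36 genes and NF-YA fl/fl 3 the lowest for 30, and 28 genes followed the order 2, 1, 3. How many of all tested genes had this order was not counted, so it cannot be called particular to the 40 genes. The ratio of NF-YA fl/fl 2 to NF-YA fl/fl 3 had a median of 1.52 and ran from 0.931 for Cenpc1 to 2.16 for Ttk. TPM have the same total in every library, and genes with an effective length under 400 nt held 48.0% of the TPM in NF-YA fl/fl 2 but 54.8% and 62.4% in NF-YA fl/fl 1 and 3, and 50.1% to 57.7% in NF-YA cKO.

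Promoters were read because the genes moved together and NF-Y binds CCAAT. A window of 250 bases before to 50 bases after the start was analysed for 35 of the 40 genes (RefSeq, GRCm38.p6). Those of Spc24, Zwilch, Aurkb, Incenp and Tpx2 were not analysed here. CCAAT, on either strand (as CCAAT or ATTGG), was found at least once for 24 of the 35 (68.6%), beside 41.1% of the 27025 genes with a window of this length. At least 2 copies were found for 15 (42.9%, beside 13.3%). TTTGAA, a common form of the CHR (as TTTGAA or TTCAAA), was found for 15 (42.9%, beside 20.2%), and both motifs for 14 (beside 8.97% of all genes). The 2 motifs share a base in Cenpw and in Cdca8, and 2 CCAAT copies of opposite orientation share bases in Ube2c. A match in the window does not show binding. The windows are given for 6 genes from base -100 to base -2 relative to the start, 5′ to 3′ on the gene's strand, with CCAAT and TTTGAA in either orientation in capitals. The genes were chosen after their values were seen, the first 4 as called genes with spaced pairs of CCAAT boxes, Zwint as a gene with 1 box in these bases that was not called, and Mad2l1 as a called gene with neither motif.
Bub1 (chr2:127831861-127831959, minus strand): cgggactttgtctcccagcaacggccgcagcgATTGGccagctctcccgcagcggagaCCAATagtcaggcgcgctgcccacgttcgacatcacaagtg
Spc25 (chr2:69206215-69206313, minus strand): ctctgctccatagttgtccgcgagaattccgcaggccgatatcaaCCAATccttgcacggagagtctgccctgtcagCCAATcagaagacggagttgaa
Cdc20 (chr4:118437345-118437443, minus strand): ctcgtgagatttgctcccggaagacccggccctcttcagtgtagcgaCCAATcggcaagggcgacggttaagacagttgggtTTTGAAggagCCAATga
Ube2c (chr2:164769829-164769927, plus strand): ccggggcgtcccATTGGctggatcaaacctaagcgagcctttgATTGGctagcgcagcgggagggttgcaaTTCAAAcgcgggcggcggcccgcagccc
Zwint (chr10:72654746-72654844, plus strand): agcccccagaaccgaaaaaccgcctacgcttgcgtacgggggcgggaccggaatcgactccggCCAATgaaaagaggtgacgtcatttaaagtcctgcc
Mad2l1 (chr6:66535121-66535219, plus strand): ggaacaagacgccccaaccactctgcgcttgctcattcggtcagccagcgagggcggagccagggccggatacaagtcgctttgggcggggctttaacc

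In these stretches the first letters of the 2 CCAAT boxes were 26 bases apart in Bub1, 32 in Spc25, 45 in Cdc20 and 31 in Ube2c. Cdc20 and Ube2c also held TTTGAA, starting at -18 and -29. Over all windows of the 35 genes, 48 CCAAT boxes were found, of which 41 lay upstream of the start and 31 of these within 120 bases of it, whereas of 15 copies of TTTGAA 6 lay upstream and 9 downstream. Sites held by both windows of Bub3 were counted once. Among the genes with a CCAAT box 17 of 24 were called higher, with a median log2 fold change of 1.23, and among those without one 4 of 11 were called, with a median of 1.0. The ranges overlapped widely: Mis18a, Birc5, Mad2l1 and Knstrn were called higher without a CCAAT box in the window, and Cenpc1, the gene that was lower, had one. The presence of the box was not tested as a predictor of the change.

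**Figure D3:**
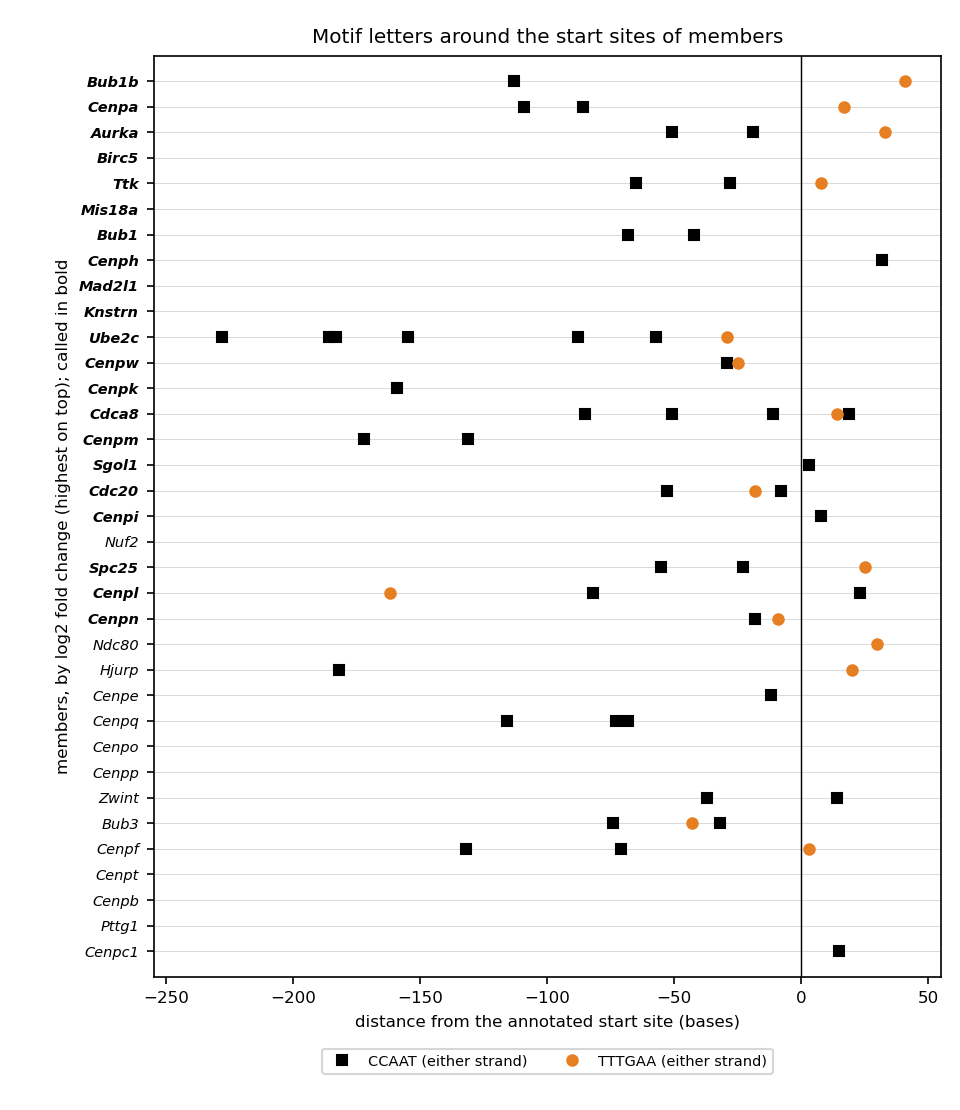
Position of CCAAT (squares) and TTTGAA (circles), each on either strand, relative to the annotated start site (horizontal axis, bases) in the window of 35 genes (vertical axis, ordered by log2 fold change, called genes in bold); the first listed window is drawn for Cenpk and Bub3, which have more. Most boxes lie upstream, and rows without a box occur among called genes and among the others.

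CENP-A, the histone H3 variant that marks centromeres, and its loading factors were all higher. Cenpa (chromosome 5, 30666877 to 30674837, GRCm38) was at 58.5, 63.6 and 60.9 CPM in the NF-YA cKO libraries and at 19.5, 26.2 and 18.9 CPM in the controls. The lowest NF-YA cKO library thus lay far above the highest control, and the difference was 2.83-fold (log2 fold change 1.5, SE 0.15, FDR = 0.000695, edgeR's quasi-likelihood test). The call held without any 1 library. Mis18a, a subunit of the complex that readies centromeres for new CENP-A, was at 14.2, 16 and 13.5 CPM against 6.0, 5.95 and 4.21 CPM, again without overlap (log2 fold change 1.43, SE 0.18, FDR = 0.0018), and was called in 3 of the 6 fits that left out a library. Hjurp, the chaperone of CENP-A, was at 234, 220 and 218 CPM against 110, 143 and 91.4 CPM. It rose by less than a doubling (log2 fold change 0.96, SE 0.17, FDR = 0.005) and was not called.

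**Figure D4:**
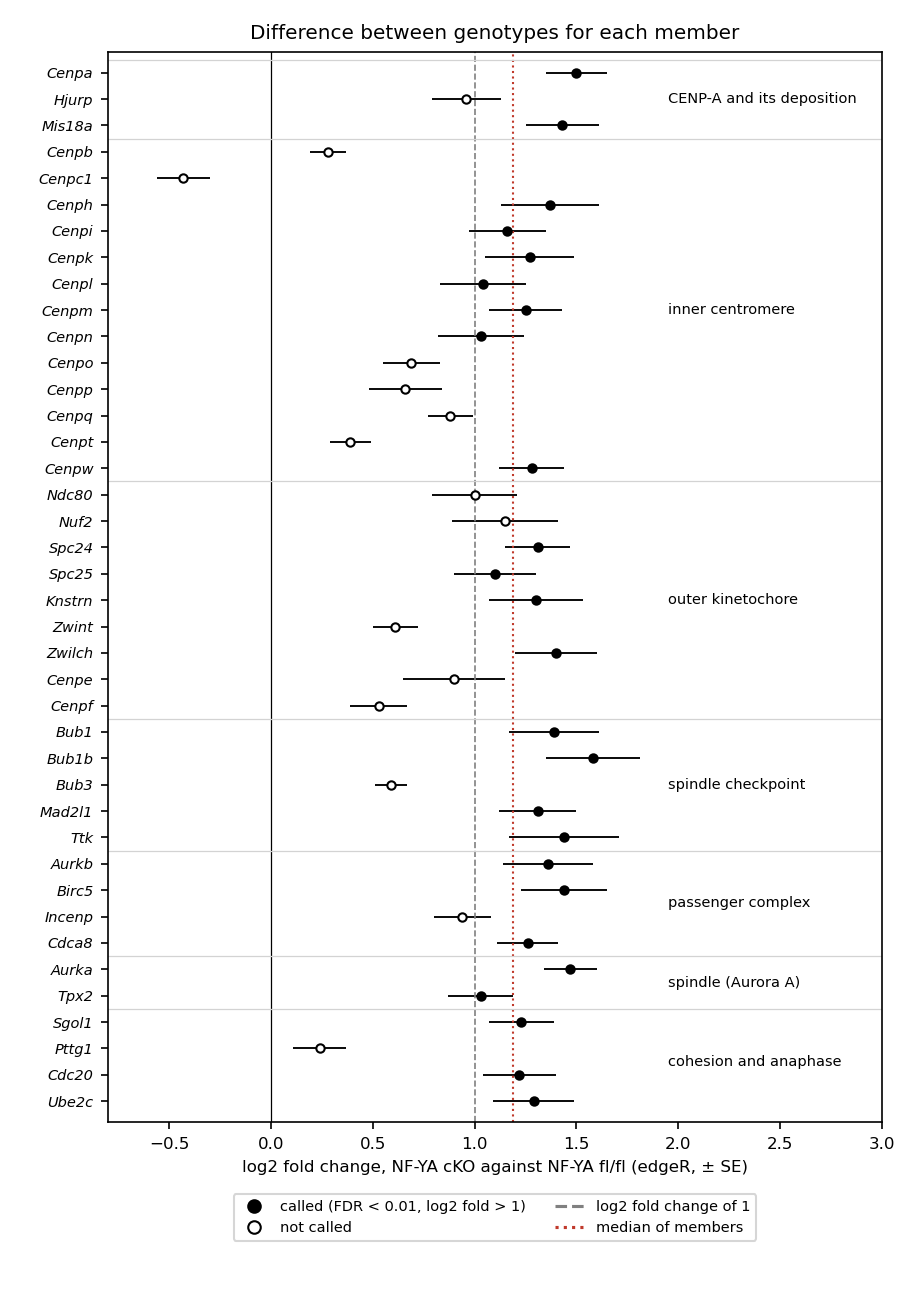
Log2 fold change (horizontal axis, NF-YA cKO against NF-YA fl/fl, edgeR, bars are ± 1 SE) of each of the 40 genes by role. Filled points are the 25 called genes; the dashed line is a log2 fold change of 1 and the dotted line the median of 1.19.

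The inner centromere had the widest range of differences. Of 13 genes, 7 were called higher (Cenph, Cenpi, Cenpk, Cenpl, Cenpm, Cenpn and Cenpw), Cenpq passed the FDR alone, and 5 did not pass it, with a median log2 fold change of 1.03 and a range from -0.43 to 1.37. Cenph, a CCAN subunit, was at 14.2, 15.9 and 15.5 CPM in NF-YA cKO and at 5.47, 7.88 and 4.21 CPM in the controls (log2 fold change 1.37, SE 0.24, FDR = 0.00507, called in 2 of 6 fits without a library). Cenpw, the partner of CENP-T in a histone-fold pair, was at 9.88, 10.3 and 9.31 CPM against 3.86, 4.55 and 3.73 CPM (log2 fold change 1.28, SE 0.16, FDR = 0.00155, called in 3 of 6). Both were more than doubled, with every NF-YA cKO library above every control. Cenpt, the other gene of that pair, had a log2 fold change of only 0.39 (SE 0.10, FDR = 0.022, not called).

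Cenpb and Cenpc1 were not called. Cenpb, which binds a sequence motif in centromeric repeats and is the inner centromere gene with the highest TPM, was at 105, 118 and 118 CPM in NF-YA cKO and at 90.1, 101 and 89.8 CPM in the controls, with no call (log2 fold change 0.28, SE 0.09, FDR = 0.0547). Cenpc1 encodes CENP-C, which binds CENP-A nucleosomes and anchors the rest of the CCAN. It was at 49.8, 53.1 and 52.3 CPM in NF-YA cKO against 57.2, 73.5 and 79.0 CPM in the controls. All NF-YA cKO libraries lay below the controls, NF-YA fl/fl 3 was here the highest library and not the lowest, and the gene was not called (log2 fold change -0.43, SE 0.13, FDR = 0.0384). Its log2 fold change stayed between -0.57 and -0.34 in the 20 alternatives. Of the other CCAN subunits, the log2 fold changes were 1.27 for Cenpk, 1.25 for Cenpm, 1.16 for the X-linked Cenpi, 1.04 for Cenpl, 1.03 for Cenpn, 0.88 for Cenpq, 0.69 for Cenpo and 0.66 for Cenpp.

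In the outer kinetochore 4 of 9 genes were called higher (Spc24, Spc25, Knstrn and Zwilch), 1 passed the FDR alone and 4 did not pass it, and the median log2 fold change was 1.10. The 4 subunits of the Ndc80 complex fell on both sides of the threshold. Spc24, which ties that complex to the centromere side, was at 44.0, 50.9 and 48.7 CPM in NF-YA cKO and at 15.2, 22.1 and 20.7 CPM in the controls (log2 fold change 1.31, SE 0.16, FDR = 0.00151, called in 4 of 6 fits without a library). Its partner Spc25 was called with a log2 fold change of 1.10. Nuf2 (1.15, FDR = 0.0131) and Ndc80 (1.0, FDR = 0.0113), the microtubule-binding subunits, just missed the FDR threshold. Ndc80 was not above the fold threshold either. Zwilch, a subunit of the RZZ complex that brings dynein and Mad1 to kinetochores, was at 55.4, 60.4 and 51.9 CPM against 21.5, 26.9 and 15.3 CPM (log2 fold change 1.40, SE 0.20, FDR = 0.00281, called in 2 of 6). Zwint, which links RZZ to the kinetochore, had the highest mean TPM of the 40 genes (75.8). It was at 151, 149 and 141 CPM in NF-YA cKO and at 93.9, 108 and 86.6 CPM in the controls, above the controls in CPM but by less than a doubling (log2 fold change 0.61, SE 0.11, FDR = 0.00518), and the genotypes overlapped in TPM. Knstrn, a microtubule-binding protein of kinetochores and spindle poles, was called with a log2 fold change of 1.30. The kinesin gene Cenpe (0.90) and Cenpf (0.53) did not pass the FDR threshold.

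All 5 spindle checkpoint genes rose and 4 were called, with a median log2 fold change of 1.39. Bub1b, which encodes the Cdc20 inhibitor BubR1, had the largest change of the 40 genes. It was at 138, 151 and 140 CPM in NF-YA cKO and at 38.6, 66.4 and 38.0 CPM in the controls, so that even the high control NF-YA fl/fl 2 held less than any NF-YA cKO library (log2 fold change 1.58, SE 0.23, FDR = 0.00258, called in 2 of 6 fits without a library). Ttk, the kinase Mps1 that starts checkpoint signalling, was at 34.4, 34.2 and 30.3 CPM against 10.7, 17.6 and 8.14 CPM (log2 fold change 1.44, SE 0.27, FDR = 0.00708, called in 2 of 6). It had the widest control spread of the 40 genes. Mad2l1, the Mad2 protein that captures Cdc20, was at 64.1, 67.0 and 59.8 CPM against 25.3, 32.9 and 19.1 CPM (log2 fold change 1.31, SE 0.19, FDR = 0.00296, called in 2 of 6). Bub1, the kinase that recruits the others to kinetochores, was called with a log2 fold change of 1.39 (SE 0.22, FDR = 0.0038).

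Bub3 differed from its partners in size. This adaptor, which binds both Bub1 and BubR1, was at 113, 115 and 112 CPM in NF-YA cKO and at 72.1, 77.4 and 75.4 CPM in the controls. It had tight controls and a well-resolved rise below a doubling (log2 fold change 0.59, SE 0.08, FDR = 0.00199), and was not called. With a mean of 54.2 TPM it had the highest level of the checkpoint genes. The difference in size between Bub3 and the others was not tested.

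The chromosomal passenger complex corrects wrong attachments through the kinase Aurora B. Of its 4 genes 3 were called and all rose, with a median log2 fold change of 1.31. Birc5, the subunit survivin, was at 73.5, 81.8 and 75.9 CPM in NF-YA cKO and at 28.4, 36.7 and 20.0 CPM in the controls (log2 fold change 1.44, SE 0.21, FDR = 0.00282). The kinase gene Aurkb was at 53.3, 64.3 and 56.0 CPM against 21.6, 29.9 and 16.2 CPM (log2 fold change 1.36, SE 0.22, FDR = 0.00417). For both, no control reached any NF-YA cKO library, with NF-YA fl/fl 2 the highest control and NF-YA fl/fl 3 the lowest, and each was called in 2 of 6 fits without a library. Cdca8 (borealin) was at 49.2, 52.6 and 51.5 CPM against 20.5, 25.8 and 17.4 CPM (log2 fold change 1.26, SE 0.15, FDR = 0.00151, called in 3 of 6). The scaffold gene Incenp passed the FDR but not the fold threshold (log2 fold change 0.94, SE 0.14, FDR = 0.00328).

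Aurora A acts at spindle poles, where Tpx2 activates it. Aurka was at 81.5, 88.3 and 83.8 CPM in NF-YA cKO and at 26.8, 36.4 and 28.1 CPM in the controls, a 2.78-fold difference with the smallest FDR of the 40 genes (log2 fold change 1.47, SE 0.13, FDR = 0.000567), and the call held without any 1 library. Tpx2 was at 194, 198 and 187 CPM against 92.4, 117 and 74.9 CPM. It was also called, but close to the fold threshold (log2 fold change 1.03, SE 0.16, FDR = 0.00366), and in 1 of 6 fits without a library.

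Of the genes that protect cohesion or release it, 3 of 4 were called. Cdc20, the target of the checkpoint and activator of the APC/C, was at 126, 126 and 121 CPM in NF-YA cKO and at 48.2, 68.5 and 43.0 CPM in the controls (log2 fold change 1.22, SE 0.18, FDR = 0.00267). Ube2c, the ubiquitin-conjugating enzyme of the APC/C, was at 62.6, 68.2 and 62.3 CPM against 23.5, 35.3 and 20.4 CPM (log2 fold change 1.29, SE 0.20, FDR = 0.00375). Sgol1 (shugoshin), which shields centromeric cohesin, was at 37.6, 41.3 and 38.6 CPM against 16.3, 20.2 and 13.6 CPM (log2 fold change 1.23, SE 0.16, FDR = 0.0017). No control reached any NF-YA cKO library for these 3 genes, and each was called in 2 of 6 fits without a library. Pttg1, the separase inhibitor securin, showed the smallest difference of the 40 genes, with 9.12, 9.1 and 9.54 CPM against 8.29, 7.79 and 7.5 CPM (log2 fold change 0.24, SE 0.13, FDR = 0.198).

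Some of these genes share exon bases with a neighbour, and the sources used here do not say whether reads were counted by strand. In GENCODE annotation of GRCm38, 11 of the 40 did so, 10 with a gene on the opposite strand only and Cenpb with Spef1 on its own strand (20 bases). Ube2c shared 592 bases with the muscle gene Tnnc2, which moved the other way (log2 fold change -7.65), and Cenpo shared 1380 bases with Adcy3. The part of these overlaps in the values was not tested.

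Other genes of the centromere, kinetochore and spindle were higher as well. Of a list of 41 such genes 40 were tested (Aurkc was not), with a median log2 fold change of 1.05. Of these, 19 were called higher (beside 4.65% of all tested genes) and 0 lower (beside 7.67%). Trip13, the ATPase that resets Mad2, had the largest change (log2 fold change 1.81, SE 0.21, FDR = 0.00122), followed by Apitd1, which encodes CENP-S (1.54, FDR = 0.00308), and Ska1, of a complex that keeps kinetochores on microtubule ends (1.49, FDR = 0.00251). Clasp1, which promotes microtubule growth and is active outside mitosis too, was lower in all NF-YA cKO libraries without a call (log2 fold change -0.39, SE 0.08, FDR = 0.00887).

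The APC/C and cohesin, whose core subunits non-dividing cells make as well, were examined next. Among 16 APC/C genes 2 were called higher, beside 4.65% of all tested genes, with a median log2 fold change of 0.28. These were Ube2s, the enzyme that extends the ubiquitin chains started by Ube2c (1.09, SE 0.09, FDR = 0.000429), and Anapc15, which releases checkpoint complexes from the APC/C (1.02, SE 0.14, FDR = 0.00202). Among 13 cohesin genes 1 was called higher, Esco2, the acetyltransferase of S phase (1.27, SE 0.22, FDR = 0.00522), and the median was 0.20. A further 4 cohesin genes were higher and passed the FDR alone (Pds5a, Smc1a, Smc3 and Stag1). Of all tested genes, 10.3% were higher with an FDR under 0.01 at any fold change. Over the 3 lists 22 genes were called higher. That count fell to 4, 2 and 3 without NF-YA cKO 1, 2 or 3 and to 7 without NF-YA fl/fl 1, and was 32 and 18 without NF-YA fl/fl 2 or 3. Differences between the lists were not tested.

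Genes of DNA replication rose beside the mitotic genes. Of 24 S phase genes, 20 were called higher, beside 4.65% of all tested genes, with a median log2 fold change of 1.34. Pcna, the sliding clamp, and Rrm2, a subunit of ribonucleotide reductase, had log2 fold changes of 1.43 (SE 0.12, FDR = 0.000429) and 1.71 (SE 0.28, FDR = 0.00395). The summed TPM of the 40 genes was 1372, 1237 and 1315 in the NF-YA cKO libraries and 626.1, 986.5 and 474.4 in the NF-YA fl/fl libraries, and that of the S phase genes was 1438, 1316 and 1417 against 529.8, 862 and 424.2. Both sums had the order 2, 1, 3 in the controls. The ratio of the sum of the 40 genes to that of the S phase genes was 0.954, 0.94 and 0.928 in NF-YA cKO and 1.18, 1.14 and 1.12 in NF-YA fl/fl, so that all 3 NF-YA cKO libraries had the lower ratio although both sums were higher there.

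Markers of other cells and of differentiation moved with the genotype too. Summed TPM of 18 terminal muscle genes was 76.33, 106.3 and 184.6 in NF-YA cKO and 13020, 11060 and 7839 in NF-YA fl/fl. All 18 were called lower, beside 7.67% of all tested genes, and their median log2 fold change was -6.69. The control libraries thus held far more RNA of differentiated muscle. Of 8 satellite cell and myoblast genes 0 were called higher (beside 4.65%) and 2 lower (Cdh15 and Des), with sums of 817.9, 784.9 and 887.4 TPM against 1331, 1292 and 1682 TPM. This list went both ways, with 3 genes higher and 5 lower in fitted level. In CPM the NF-YA cKO libraries lay above all controls for Pax7 and Vcam1, and below them for Cdh15, Itga7 and Des. Pax7 passed the FDR but not the fold threshold (log2 fold change 0.94, SE 0.17, FDR = 0.00624). The part of these differences in the level of the 40 genes was not tested.

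Macrophage genes were higher in NF-YA cKO, with 311.4, 293.2 and 164.2 TPM in sum against 9.17, 16.14 and 4.38 TPM. All 13 tested genes of the list were called higher, beside 4.65% of all tested genes. Lyz2 held most of it, at 124.39 to 243.95 TPM in NF-YA cKO. Adgre1 was at 0.98 to 3.39 TPM in NF-YA cKO and 0.01 to 0.11 TPM in the controls (log2 fold change 5.37). Ptprc, which encodes CD45, was at 0.25 to 0.71 TPM against at most 0.04 TPM (log2 fold change 4.35), and was listed at 0 in NF-YA fl/fl 1. NF-YA cKO 3 had the lowest macrophage sum of its group. In NF-YA fl/fl the macrophage sum had the order 2, 1, 3, which the TPM scaling had too. Lyz2 had this order also in CPM, at 4.01, 6.25 and 1.97 in NF-YA fl/fl 1, 2 and 3. Not every gene of the list did, as Itgam was at 1.45, 0.862 and 1.09 CPM. Fcgr1 of this list did not pass the filter.

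Fibro-adipogenic genes were at 239.3, 182.9 and 244.5 TPM in NF-YA cKO and at 316.9, 446.3 and 131.3 TPM in NF-YA fl/fl. Of these genes 1 of 7 was called higher (Lum). For this list and those that follow, the shares of all tested genes were 4.65% called higher and 7.67% called lower. The controls had the order 2, 1, 3, as the TPM scaling did. The pericyte and smooth muscle sums and the endothelial sums (2.24, 3.26 and 1.04 TPM in NF-YA fl/fl 1, 2 and 3) had the order 2, 1, 3 as well. The sums of the terminal muscle, of the satellite cell and myoblast and of the Schwann cell genes did not have this order. Pericyte and smooth muscle genes were at 38.83, 36.75 and 53.6 TPM against 106.5, 145.5 and 31.21 TPM, with 1 of 5 tested called lower (Abcc9; Kcnj8 was not tested). Of 6 Schwann cell genes, 5 were called higher and Erbb3 lower, at 14.98 to 17.58 TPM against 38.34 to 45.68 TPM in sum. Erbb3 held most of the control sum, and without it the sums had the opposite direction, at 12.45 to 14.74 TPM in NF-YA cKO and 3.56 to 4.44 TPM in the controls. Endothelial genes were at 1.04 to 4.77 TPM in sum over the 6 libraries, with 1 of 6 called higher (Kdr). What these cells added to the level or the spread of the 40 genes was not tested.

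**Figure D5:**
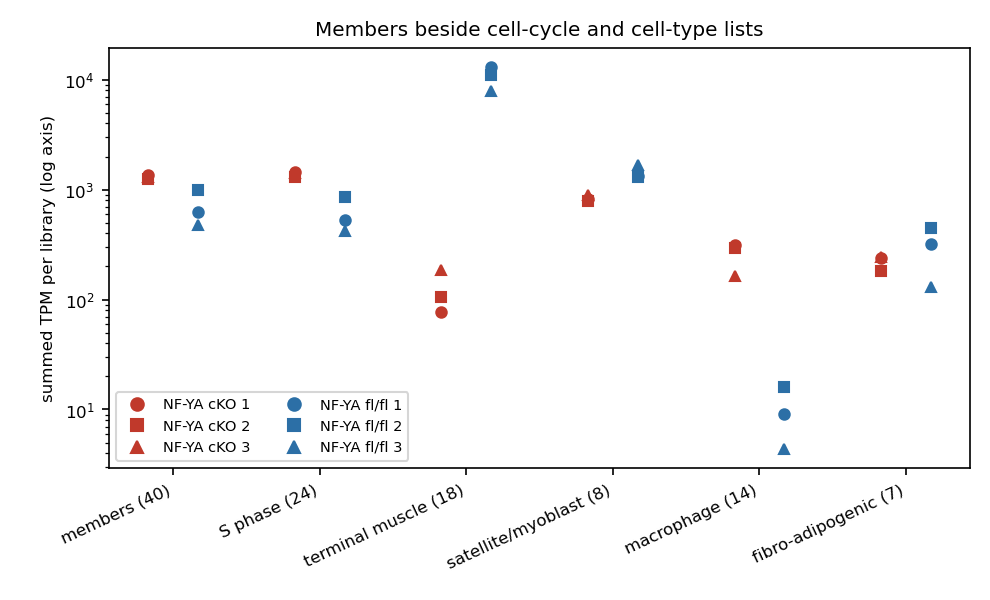
Summed TPM per library (vertical log axis) of the 40 genes and of 5 lists of S phase and cell type genes (horizontal axis, number of genes in brackets), with NF-YA cKO in red and NF-YA fl/fl in blue and 1 symbol per library number. The 40 genes lie at 1237 to 1372 TPM in NF-YA cKO and 474.4 to 986.5 TPM in NF-YA fl/fl, and the terminal muscle genes differ the most.

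Transcripts of the same gene also differed in share. Of the 40 genes 33 have more than 1 annotated transcript, and 49 transcripts of 22 genes held a mean share of the gene's TPM between 10% and 90%. For 17 of these (34.7%), in 12 genes, the shares of the genotypes did not overlap, beside 20.6% of such transcripts of all tested genes, each with p = 0.1 in an exact two-sided permutation test, the smallest p the design allows. For Cenpa, a transcript of 1364 nt held 42.7% ± 2.19 of the TPM in NF-YA cKO and 30.2% ± 4.04 in NF-YA fl/fl (SD, n = 3). For Cenpm, a transcript of 1218 nt held 69.3% ± 8.48 against 40.1% ± 15.3. The 3 Zwint transcripts all separated, with 63.0% ± 1.16 against 71.7% ± 3.40 for the most abundant one of 1833 nt, and the main Cenpc1 transcript (3779 nt) was at 83.2% ± 4.51 against 93.3% ± 2.10. Bub1, Mad2l1 and Nuf2 shares overlapped between the genotypes. Shares are estimates from reads split between similar transcripts. Transcripts of the same gene divide a common total, so their shares, as those of Zwint, do not move independently.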

How the data were processed

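The 6 RNA-seq libraries of SCs were grouped by genotype from their labels, 3 in each group. Libraries were made by the authors with a stranded total RNA kit. Per the labels and the study's methods, the authors used bowtie2 to align reads to mouse transcripts (mm10) and RSEM for quantification; whether strand was used was not given in the sources used here. The deposited expected counts are estimates, in which a read shared by several transcripts is split, and they are neither normalized nor filtered. The deposited TPM were scaled by the authors' software to effective length and to a fixed sum, so that depth is lost. The deposited transcript tables hold, in percent, how much of a gene's TPM each transcript takes. The deposited effective length was used for offsets and for the share of short genes.

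Expected counts were rounded, and a gene was tested where 2 or more libraries exceeded 10 counts, with edgeR 4.0.16 in R 4.3.3 (TMM, quasi-likelihood test, no factor but genotype, Benjamini-Hochberg adjustment over all 17348 genes, given as FDR). Calls needed an FDR under 0.01 together with a log2 fold change beyond 1 or -1. The study's methods set these limits for DESeq2, which was an alternative here (1.42.0), as was limma 3.58.1 on TPM. CPM are counts scaled to library size after TMM; 3 counts corresponded to 0.073 to 0.1114 CPM. The SE is the size of the log2 fold change divided by the square root of F. The fit was tried on simulated counts drawn with equal spread in both genotypes, so the unequal spread of these libraries was not covered. The 40 genes and the other lists were chosen with earlier results of these data known. Values in every library were given, for each role, for the 2 genes with the highest mean TPM and the 2 with the largest change, and for the gene that moved against the rest. Of the other lists, the called genes with the largest changes were named, except for 1 that was left out; Clasp1, Pcna, Rrm2, the single marker genes and the transcripts were named after their values were seen. No pair of libraries was within sampling noise. No source used here says how many mice went into a library, so that p-values measure the spread between these libraries.

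Coordinates (all 40 genes) and promoters (35 genes) came from RefSeq (GRCm38.p6), matched by transcript accession; Sgol1 is named Sgo1 there. Plots were drawn with matplotlib 3.10.9.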

Additional observations from a re-analysis of the deposited data

How the results depend on the processing

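None of the 20 alternatives reversed the direction of any of the 40 genes. Alternatives that change only the threshold keep the fold changes. As the genotypes did not overlap in CPM for any of the 40 genes, a reversal was unlikely from the start. Of the 800 combinations of a gene and an alternative, 604 kept their side of the threshold, 181 lost a call and 15 gained one. The 25 genes called higher became 20 to 27 under DESeq2, its size factors, total counts, upper-quartile factors, length offsets, filterByExpr, no filter, unrounded counts and an FDR under 0.05, and 30 without the fold threshold. Limma on log2(TPM + 1) and on log2(TPM + 0.1) called 1 each, and glmTreat against a log2 fold change of 1 called 0. Leaving out 1 library gave 2 to 30 genes called higher, and 0 lower each time. Of the genes of the 3 other lists, 22 were called higher; the limma fits called 1 each, glmTreat 0, the fit without a fold threshold 34 higher and 1 lower (Clasp1), and leaving out 1 library gave 2 to 32 higher and 0 lower. Fewer libraries leave fewer degrees of freedom, and the part of each library's own values in these counts was not tested. Requiring 2 or more CCAAT boxes left 15 of 24 genes. Over all genes, the 806 called higher and 1331 lower became 97 and 510 under glmTreat, 177 and 668 (pseudocount 1) or 279 and 1081 (pseudocount 0.1) under limma, 1163 and 2025 with an FDR under 0.05, 1787 and 1729 without the fold threshold, and 177 to 890 and 523 to 1684 without 1 library.

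With the replicate number as a block, 22 of the 40 genes were called higher (0 lower), 21 of the other lists, and 625 and 947 of all genes. Equal numbers do not name the same mouse, and deviations of same-numbered libraries from their group means correlated at 0.165, -0.069 and 0.053, so the numbers were not taken as pairs.

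The lowest level of any of the 40 genes in a library was 2.07 CPM (Cenpm), where 3 counts corresponded to at most 0.1114 CPM.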
